A study of Mus musculus with 2 samples.

Results

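The Crabp1 Mmp11 Prss35 fibroblasts are dermal cells of healed mouse skin wounds that carried several of 6 genes at once. Fibroblasts were first gated as cells with at least 10 unique molecular identifiers (UMIs, the count of captured transcripts) of Pdgfra, Lum, Dpt, Lox and Postn together per 10000 UMIs, and at most 2 UMIs of Pecam1, Sox10, Rgs5 and Ptprc. Members were then selected on the measured values as the gated cells with at least 2 UMIs in at least 4 of the 6 genes Crabp1, Prss35, Mmp11, Igfbp2, Megf6 and Tnn. This gave 428 members among 2669 gated fibroblasts, of 4648 cells kept and 4680 in the files. Because these values chose the cells, differences between members and the other 2241 gated cells are given as a description.

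Dermal fibroblasts build the collagen matrix of the skin and differ by depth, with papillary cells near the epidermis and reticular and fascial cells below. In a wound many of them become myofibroblasts, which form contractile actin bundles and deposit scar matrix. Crabp1 encodes a cytosolic retinoic acid-binding protein, Mmp11 (stromelysin-3) a metalloproteinase of remodelling stroma, and Prss35 a serine protease-like protein that lacks the usual catalytic serine. Igfbp2 binds insulin-like growth factors, Tnn encodes the matrix glycoprotein tenascin-W, and Megf6 a secreted protein with many EGF-like repeats.

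The study compared 2 genotypes at 3 days after wounds had completely re-epithelialized, with 1 library each. The control mice were SM22rtTA; tetO-Cre; R26-Tomato, and the SM22-SmoM2 mice were SM22rtTA; tetO-Cre; R26-SmoM2/Tomato. The labels give the mice as 4 to 5 weeks old. In both genotypes the promoter of SM22α (the gene Tagln) drives rtTA, which with doxycycline switches on Cre and through it the red protein Tomato. SM22-SmoM2 mice also express SmoM2, a permanently active Smoothened that turns on the Hedgehog (Hh) pathway. Doxycycline chow (20 g per kg) was given from day 1 after wounding. Tomato+ dermal cells were sorted, which by design leaves out cells that never used the promoter, and the purity of the sort was not tested here. Each library pooled wounds of several mice, and with 1 library per genotype no test between genotypes was possible; a difference between genotypes and a difference between libraries cannot be told apart. All intervals given are 95% and cover counting error only.

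The control library held 2856 cells with 3128 to 65167 UMIs each, and the SM22-SmoM2 library 1792 cells with 2538 to 38806. Members had a median of 13494 UMIs per cell in control and 13557.5 in SM22-SmoM2 mice, against 8510 and 9622 in other fibroblasts. The rule asks for UMIs, so deeper cells met it more easily. Summed over cells, members contributed 3922792 UMIs in the control and 2050490 in the SM22-SmoM2 library. Levels are given as counts per 1000000 UMIs (CPM) of such sums.

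The gate fixed the presence of Pdgfra, Lum, Dpt, Lox and Postn, so the fibroblast label was checked on collagen I, which the gate did not use. Col1a1 stood at 32310 CPM and 28958 CPM in control and SM22-SmoM2 members, and Col1a2 at 23195 CPM and 23162 CPM. Markers of other lineages were low in members, in part because the gate left out cells with Pecam1, Sox10, Rgs5 and Ptprc. Without those 4 genes the 7 Schwann markers summed to 52 and 37.5 CPM, the 7 endothelial markers to 42.6 and 26.8 CPM, the 7 mural markers to 12.5 and 12.2 CPM, the 7 immune markers to 20.1 and 20 CPM, and the 8 keratinocyte markers to 49.2 and 43.4 CPM, mostly Krt10 (42.8 CPM and 40.0 CPM). Myh11, which defines smooth muscle, stood at 0.765 CPM and 0.975 CPM. The other gated cells were less pure. At least 3 UMIs of Schwann markers were found in 525 of 1295 other fibroblasts of the control library and 212 of 946 from SM22-SmoM2 mice, against 9 of 284 and 3 of 144 members, and the summed Schwann markers reached 874 and 404 CPM in other fibroblasts. Each comparison with other fibroblasts was therefore repeated after cells with at least 3 UMIs of Schwann markers, or at least 5 of endothelial, mural, immune or keratinocyte markers, had been left out, a step added after the values had been seen. It left 728 control and 705 SM22-SmoM2 cells for comparison, called cleaned other fibroblasts here. Ratios against them leave out such cells among members too, while the levels given for members are those of all members.

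Of the genes that chose the members, Crabp1 was the most abundant, at 2331 CPM (2284 to 2380) in control and 1876 CPM (1817 to 1936) in SM22-SmoM2 members, against 170.3 CPM and 73.6 CPM in other fibroblasts. Prss35 stood at 937 CPM and 634 CPM in members and 105 CPM and 52.2 CPM in other fibroblasts. Mmp11 stood at 749 CPM and 262 CPM against 55.0 CPM and 40.0 CPM. These values follow from the rule. Among the chosen cells the order of the genes was not the same in both libraries. Mmp11 was lower in SM22-SmoM2 than in control members, with a log2 ratio of -1.51 (-1.65 to -1.38). Tnn was higher, at 211 CPM in control members and 337 CPM in SM22-SmoM2 members with a log2 ratio of 0.67 (0.53 to 0.82). Likewise 253 of 284 control and 87 of 144 SM22-SmoM2 members had at least 2 UMIs of Mmp11, while 160 and 122 had at least 2 of Tnn. Igfbp2 (997 CPM and 704 CPM) and Megf6 (259 CPM and 219.5 CPM) lay closer between libraries. Single members held between 1 and 148 UMIs of Crabp1 in the control library, with a median of 26, and between 0 and 134 in the SM22-SmoM2 library, with a median of 21.5. In the GENCODE vM21 annotation of GRCm38, the build of the files, Crabp1 lies at chr9:54764748-54773110, Prss35 at chr9:86743649-86758443 on the same chromosome, Mmp11 at chr10:75923222-75936496, Igfbp2 at chr1:72824503-72852474, Megf6 at chr4:154170730-154275713 and Tnn at chr1:160085029-160153580. Mmp11 overlaps Chchd10 on the other strand, and the use of strand in counting is not given in the sources used here.

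**Figure D1:**
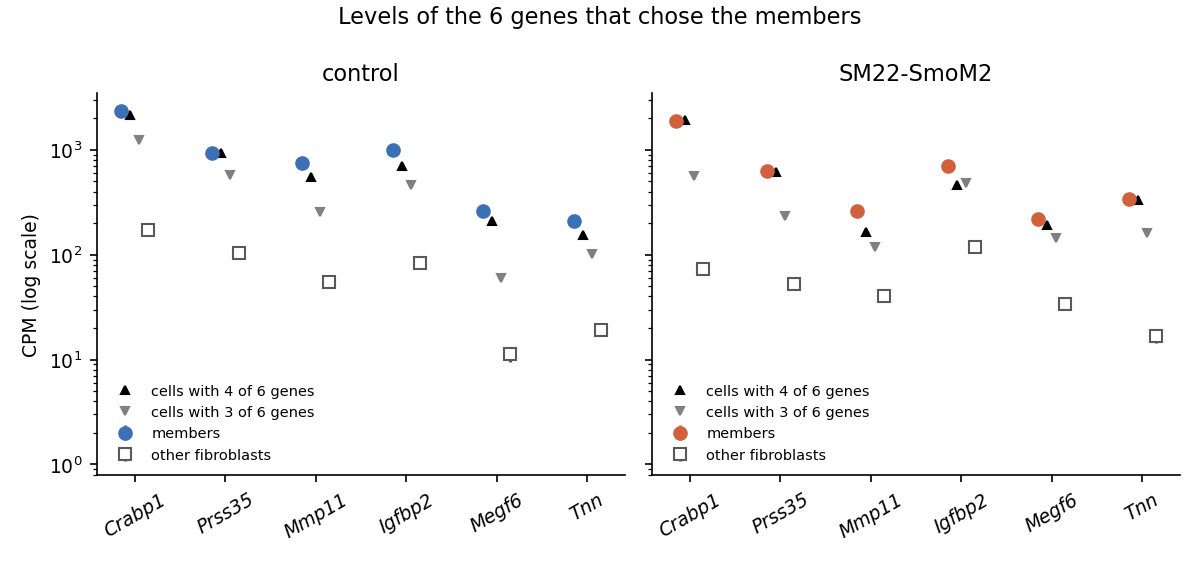
Levels of the 6 genes used to choose members, in CPM on a log axis, for the control (left) and SM22-SmoM2 (right) libraries. Filled circles are members and open squares other fibroblasts, with 95% Poisson intervals where wider than the symbol; triangles are the cells just inside (4 of 6 genes) and just outside (3 of 6) the threshold. Crabp1 is highest among the 6 genes in members of both libraries, and Mmp11 lies at 749 CPM in control members and 262 CPM in SM22-SmoM2 members.

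The values on either side of the threshold follow from the rule. With 4 of 6 genes, just inside it, 109 control cells had 2153 CPM of Crabp1 and 551 CPM of Mmp11, and 70 SM22-SmoM2 cells had 1908 and 163 CPM. With 3 of 6 genes, just outside it, 84 control cells had 1248 and 256 CPM, and 45 SM22-SmoM2 cells 566 and 117 CPM. The median depth of these 4 sets lay between 11726 and 13075 UMIs. All 6 genes were found in 54 control and 31 SM22-SmoM2 cells. As a further description, cells were also chosen by at least 3 of the other 5 genes and the gene left out was then read. This step was added after the values had been seen. The 6 genes had been picked together with earlier results of these data known, so a separation was built in and is not independent evidence. Crabp1, left out in this way, stood at 2207 CPM in 299 control cells so chosen and 173 CPM in the remaining gated cells, and at 1698 and 74.6 CPM in the SM22-SmoM2 library. The smallest separation was that of Igfbp2 in the SM22-SmoM2 library, with 618 against 120.5 CPM, a log2 ratio of 2.36 (2.25 to 2.47).

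Members made up 18.0% (16.1% to 20.0%) of gated fibroblasts in the control library, 284 of 1579, and 13.2% (11.3% to 15.4%) in the SM22-SmoM2 library, 144 of 1090. Of all kept cells they were 9.94% (8.87% to 11.1%) and 8.04% (6.82% to 9.39%), intervals that overlap. After cells of other lineages had been left out the shares were 27.4% (24.6% to 30.2%) and 16.7% (14.2% to 19.4%). A fibroblast gate set at 20 UMIs per 10000 gave 20.7% and 20.2%, with nearly no difference. The smaller share in the SM22-SmoM2 library therefore depended on which cells were counted as fibroblasts. The Tomato sort and the pooling of wounds also bear on these shares, and their part was not tested.

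**Figure D2:**
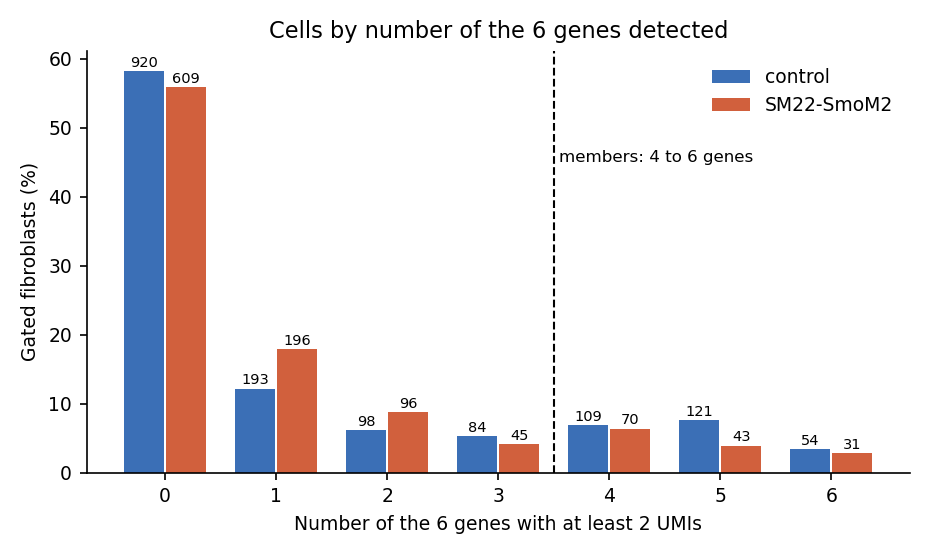
Gated fibroblasts of the control and SM22-SmoM2 libraries by how many of the 6 genes had at least 2 UMIs, as a percentage of the gated cells of that library, with cell numbers above the bars. Cells right of the dashed line are members; most gated cells, 920 in the control and 609 in the SM22-SmoM2 library, had none of the 6 genes at that count.

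The members carried a shared set of further genes in both libraries. The genes that differed most, by the smaller of their log2 ratios, were led by Sytl2, a synaptotagmin-like protein of vesicle traffic, and by Col7a1, the collagen of the anchoring fibrils that tie epidermis to dermis. Sytl2 stood at 95.8 CPM in control members against 11.5 CPM in control other fibroblasts, and 55.1 against 4.55 CPM in SM22-SmoM2 mice, log2 ratios of 3.06 (2.78 to 3.34) and 3.60 (3.08 to 4.14). Col7a1 stood at 342 CPM in control members against 44.9 CPM in control other fibroblasts, and 329 against 46.0 CPM in SM22-SmoM2 mice, log2 ratios of 2.93 (2.79 to 3.07) and 2.84 (2.66 to 3.01). Both genes were higher in members of each library, and Col7a1 was at nearly the same level in members of both. Sema3a, a secreted axon guidance cue, stood at 55.1 CPM in control members against 7.29 CPM in control other fibroblasts, and 41.5 against 6.10 CPM in SM22-SmoM2 mice. Other secreted proteins were Ccbe1, a collagen- and calcium-binding protein needed for lymphatic growth (log2 ratios of 2.84 and 2.51), Htra1, a secreted serine protease (1.97 and 1.96), and Pla1a, a secreted phospholipase (2.03 and 2.84). Fhod3, a formin that assembles actin filaments, had log2 ratios of 3.10 and 2.72, Cdc42ep3, an effector of the small GTPase Cdc42, 2.05 and 2.13, and Fam101b, a regulator of filamin and perinuclear actin also named Rflnb, 1.998 and 2.22. At the cell surface were Ptk7, a Wnt co-receptor of planar cell polarity (2.69 and 2.02), Cldn10, a claudin (2.19 and 2.31), and Tmem26 (2.53 and 2.48), and Irx1 is a homeodomain factor (2.06 and 2.12). Against cleaned other fibroblasts these genes kept log2 ratios of at least 1.57 in both libraries.

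Among 8105 genes with at least 100 UMIs in each library, 110 (1.36%) were at least 2-fold higher in members than in other fibroblasts in both libraries, and 417 (5.14%) at least 2-fold lower. With cleaned other fibroblasts these were 71 (0.983%) and 194 (2.69%) of 7225 genes, 61 and 168 of them found both ways once mitochondrial, ribosomal, sex-linked and unnamed genes were set aside. Over all genes tested the median log2 ratio was -0.14 in the control and -0.15 in the SM22-SmoM2 library. The counts describe cells chosen on the same libraries and are not a test. Counts for short lists of genes, given below, are to be read beside these shares.

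**Figure D3:**
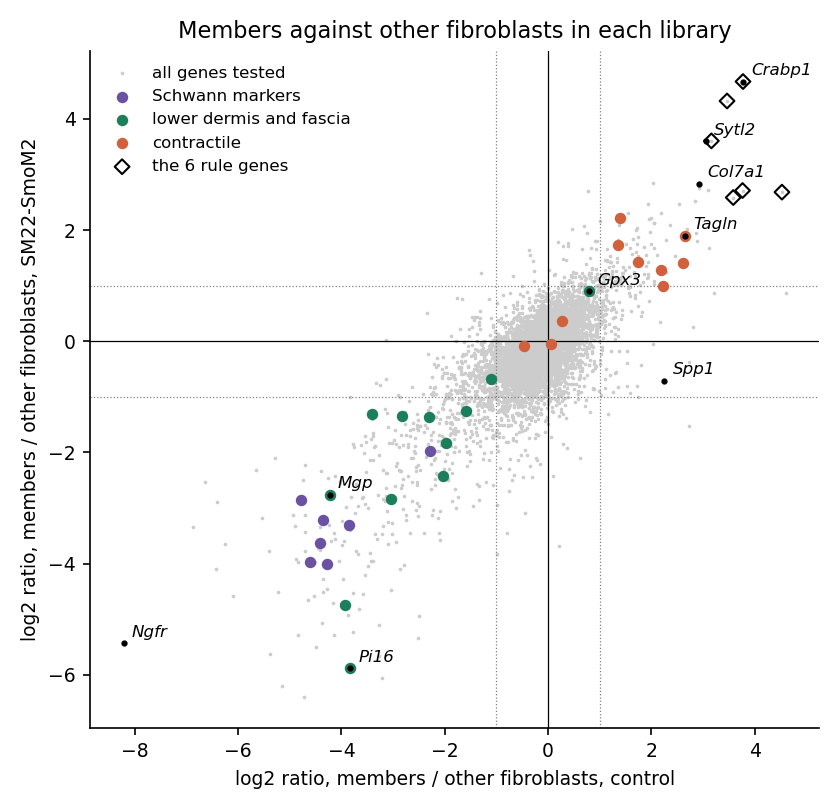
Log2 ratio of members over other fibroblasts for each gene tested, in the control (horizontal) and SM22-SmoM2 (vertical) libraries, each point a gene; dotted lines mark 2-fold. Contractile genes lie towards the upper right apart from Cald1, Cnn3 and Tpm1, lower dermis and fascia genes towards the lower left with Gpx3 as the exception, Schwann markers at the lower left, and Spp1 is higher in control members (log2 ratio 2.25) but not in SM22-SmoM2 members (-0.71).

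Contractile genes were higher in members. Of 12 on the list, 10 were tested, 7 were at least 2-fold higher in both libraries and 0 lower, with medians of 1.56 and 1.35. Tagln, the actin-binding protein SM22α whose promoter drove the transgenes, stood at 341 CPM in control members against 54.0 CPM in control other fibroblasts, and 483 against 129.6 CPM in SM22-SmoM2 mice. The groups were apart in both libraries, with log2 ratios of 2.66 (2.53 to 2.79) and 1.90 (1.78 to 2.02). Acta2, smooth muscle actin and the usual myofibroblast marker, stood at 387 CPM in control members against 148 CPM in control other fibroblasts, and 532 against 115 CPM in SM22-SmoM2 mice, log2 ratios of 1.39 and 2.21. Myl9, a myosin light chain (2.62 and 1.41), Actg2, another smooth muscle actin (2.20 and 1.28), Tpm2, a tropomyosin (1.36 and 1.74), Cnn2, a calponin (1.74 and 1.42), and Mylk, the myosin light chain kinase (2.23 and 1.00), went the same way, whereas Cald1, Cnn3 and Tpm1 lay between -0.47 and 0.36. Against cleaned other fibroblasts 4 of 10 remained at least 2-fold higher in both libraries, and the medians were 1.26 and 1.18. Acta2 was then less than 2-fold apart in the control library, at 387 CPM in all members against 202 CPM in cleaned other fibroblasts. The SM22-SmoM2 library held 532 CPM of Acta2 in all members against 131 CPM in cleaned other fibroblasts, still past 2-fold. When each cell was thinned to 2500 UMIs, Tagln was found in 44.7% (38.8% to 50.7%) of control and 47.9% (39.5% to 56.4%) of SM22-SmoM2 members, and in 9.07% (7.08% to 11.4%) and 18.9% (16.0% to 22.0%) of cleaned other fibroblasts. Without thinning the shares were 71.1% and 84.7% of members and 22.5% and 37.4% of cleaned other fibroblasts. Endothelial cells of the sort, with at least 3 UMIs of Pecam1, had Tagln in 20.2% and 17.9% at the same thinned depth, so the share in cleaned other fibroblasts was near or below that in endothelial cells. Tagln overlaps Pcsk7 on the other strand at chr9:45929619-45936058.

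Matrix genes were uneven. Over all genes 1.36% were higher and 5.14% lower, so 1 or 2 genes of a short list say little about that list. Of the 11 fibrillar and associated collagens tested, 3 were at least 2-fold higher in both libraries and 1 lower, with medians of 0.63 and 0.94. Col12a1, a collagen that coats fibrils, stood at 1151 CPM in control members against 301 CPM in control other fibroblasts, and 1425 against 256 CPM in SM22-SmoM2 mice, and Col1a1 and Col5a1 had log2 ratios of 1.06 and 1.16 and of 1.15 and 1.65. Against cleaned other fibroblasts Col12a1 alone of these 3 kept 2-fold in both libraries (1.58 and 2.32), and Col1a1 had 0.71 and 0.97. Of 10 other collagens tested, 4 were lower in both libraries and 1, Col7a1, was higher, with medians of 0.34 and -0.17. Col15a1 had log2 ratios of -3.09 and -3.25 and Col18a1 of -2.15 and -1.98. Collagen-processing genes had medians of 0.27 and 0.45, with 0 higher and 0 lower of 16 tested, counts too near the background shares to tell them from other genes. Summed, they stood at 9848 CPM in control members against 6861 in control other fibroblasts, and 8453 against 4784 CPM in SM22-SmoM2 mice. Matricellular proteins split. Thbs2, a thrombospondin of wound matrix (1.51 and 1.75), and Wisp1, a CCN protein (1.42 and 1.23), were higher. Tnxb, tenascin-X, had log2 ratios of -2.87 (-3.19 to -2.58) and -4.10 (-7.16 to -2.23), the second from 2 UMIs in members. Thbs3 (-2.70 and -1.86), Thbs4 (-3.38 and -1.66), Nov (-3.41 and -1.31) and Cyr61 (-1.22 and -1.13) were lower too, which makes 2 higher and 5 lower of 16. Elastic fibre genes split too, with 2 higher and 4 lower of 15 tested. Fbln5, a fibulin of elastic fibre assembly, stood at 462 CPM in control members against 107 CPM in control other fibroblasts, and 289 against 98.8 CPM in SM22-SmoM2 mice, whereas Eln, elastin itself, had log2 ratios of -3.12 and -1.29. Mfap4, a microfibril protein, was the other higher gene (1.31 and 1.16) and did not keep 2-fold after cleaning (0.87 and 0.95), nor did Cyr61 (-0.95 and -0.98). Of 15 metalloproteinases and inhibitors tested, with Mmp11 not on the list, 2 were higher in both libraries, Mmp23 (1.25 and 1.18) and Adam12 (1.42 and 1.06), and 2 lower, Timp3 (-2.54 and -2.91) and Adamts1 (-1.38 and -1.14). Against cleaned other fibroblasts 0 were higher and 1 lower, Timp3 (-1.42 and -2.74), with Mmp23 at 0.91 and 0.99 and Adam12 at 1.07 and 0.88. The small leucine-rich proteoglycans had 1 higher, Aspn (1.07 and 1.07), and 1 lower, Prelp (-1.92 and -2.30), of 10. Beside shares of 1.36% higher and 5.14% lower over all genes, these counts say little about so short a list. Aspn did not keep 2-fold against cleaned other fibroblasts (0.65 and 0.84) while Prelp did (-2.18 and -2.42).

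Genes of the lower dermis and fascia were lower in members. All 12 on the list were tested, 10 were at least 2-fold lower in both libraries and 0 higher, with medians of -2.56 and -1.60 beside -0.14 and -0.15 over all genes. Again 10 of 12, read against cleaned other fibroblasts, were at least 2-fold lower. Pi16, which marks fascial fibroblasts, stood at 6.88 CPM in control members against 98.3 CPM in control other fibroblasts, and 0.975 against 57.8 CPM in SM22-SmoM2 mice. Mgp, an inhibitor of calcification, stood at 17.1 CPM in control members against 320.3 CPM in control other fibroblasts, and 33.6 against 228 CPM in SM22-SmoM2 mice. Ly6a, the surface protein Sca-1 of deep dermal and progenitor cells, stood at 281 CPM in control members against 1149 CPM in control other fibroblasts, and 143 against 766 CPM in SM22-SmoM2 mice, and Sfrp4, a secreted Wnt antagonist, at 13 CPM in control members against 198 CPM in control other fibroblasts, and 0.975 against 26.0 CPM in SM22-SmoM2 mice. Members were below other fibroblasts for these genes in both libraries, and SM22-SmoM2 members held 2 UMIs of Pi16 and 2 of Sfrp4 in all. Cd248 passed 2-fold in the control library only (-1.11 and -0.67), and Gpx3, a secreted glutathione peroxidase, lay above 0 (0.80 and 0.91). Of the 12 upper dermis genes 7 reached 100 UMIs, and 2 were at least 2-fold higher in both libraries and 0 lower, with medians of 0.93 and 0.86. Against cleaned other fibroblasts 5 were tested and 1, Col7a1, was higher, with medians of 1.32 and 0.28, and Prdm1 no longer reached 100 UMIs in the control library. The higher genes before cleaning were Col7a1 and Prdm1, the repressor Blimp1 of papillary precursors, which stood at 13.3 CPM in control members against 5.16 CPM in control other fibroblasts, and 95.6 against 27.2 CPM in SM22-SmoM2 mice. Ntn1, a secreted guidance protein, was higher in the control library (1.53) and not in the SM22-SmoM2 library (-0.17), and Trps1, a repressor in dermal condensates, had 0.14 and -1.04.

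**Figure D4:**
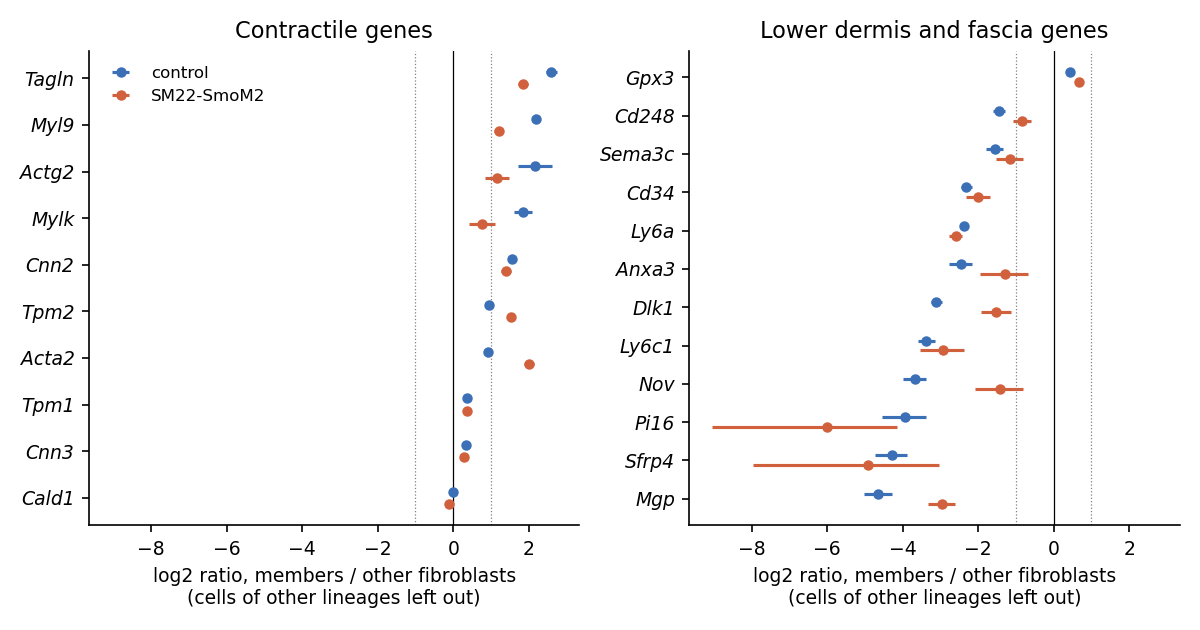
Log2 ratio of members over other fibroblasts, cells of other lineages left out of both, for the tested contractile genes (left) and lower dermis and fascia genes (right) in control (blue) and SM22-SmoM2 (orange), with 95% intervals for counting error; dotted lines mark 2-fold. Tagln is the highest contractile gene in the control library at 2.60, Cald1 lies near 0, and 11 of the 12 lower dermis genes lie below 0 in both libraries.

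The 10 genes lowest in members by the same ranking were Ngfr, Lbp, Sostdc1, Mlip, Cadm1, Fam19a5, Fgf5, Gpr37l1, Kcna1 and Fabp7. Fabp7, Ngfr and Gpr37l1 are genes of Schwann cells and other glia. Sostdc1 stood at 264 CPM in other fibroblasts and 2.50 CPM in cleaned other fibroblasts of the control library, and Kcna1 at 76.3 CPM and 0.795 CPM. With cells of other lineages left out of members as well, Sostdc1 had log2 ratios of -0.22 and -0.38 in place of -5.16 and -6.20. The part of each lineage in this change was not tested. Lbp, the lipopolysaccharide-binding protein, stayed lower in members, at 0.51 CPM in control members and 27.1 CPM in cleaned other fibroblasts, and 0.975 and 54.3 CPM in the SM22-SmoM2 library. With cleaned other fibroblasts the 10 lowest genes, chosen after their values had been seen, were Lbp, Ccdc3, Sfrp4, Cygb, Clec3b, Crispld1, Pi16, Cyp1b1, Spon2 and Sult5a1. Cygb, cytoglobin, stood at 7.14 and 7.80 CPM in members and 151 and 140.5 CPM in cleaned other fibroblasts. Clec3b, tetranectin, stood at 74.4 and 19.5 CPM in members against 1371 and 689 CPM.

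Signalling genes followed no single direction. Their counts stand beside 1.36% higher and 5.14% lower over all genes, so 1 or 2 genes of a short list say little about that list. Of 14 Wnt pathway genes tested, 5 were lower in both libraries and 0 higher. The lower genes were Nkd2, Dkk2, Sfrp1, Sfrp4 and Tcf7, that is 4 inhibitors and a transcription factor of the pathway. After cleaning 3 of 13 tested were lower, without Nkd2 (-0.45 and -0.47) and without Tcf7, which changed sign in the control library (1.48 and -0.99). Wnt5a, a noncanonical ligand, stood at 94.8 CPM in control members against 27.6 CPM in control other fibroblasts, and 77.0 against 41.8 CPM in SM22-SmoM2 mice, and Wnt2, a canonical ligand, at 9.69 CPM in control members against 92.5 CPM in control other fibroblasts, and 8.78 against 15.2 CPM in SM22-SmoM2 mice. Axin2, a feedback target of canonical Wnt, had log2 ratios of 0.87 and 0.86. In the IGF family, where Igfbp2 belongs to the rule, 3 of 9 genes were lower in both libraries and 0 higher. Igfbp4 stood at 112 CPM in control members against 645 CPM in control other fibroblasts, and 316 against 2809 CPM in SM22-SmoM2 mice, and Igfbp6 and Igfbp7 had log2 ratios of -2.76 and -3.13 and of -1.25 and -2.02. Igfbp7 did not keep 2-fold in the control library after cleaning (-0.85 and -2.05). Igfbp5, also a binding protein, was not lower (0.98 and 0.01). Of 10 retinoid genes tested, 1 was higher in both, Rbp4, the retinol carrier (1.01 and 2.16), and 2 lower, Crabp2, the other cellular retinoic acid-binding protein (-2.12 and -3.45), and Aldh1a3, which makes retinoic acid, with 6 and 1 UMI in members and log2 ratios of -3.21 (-4.67 to -2.06) and -6.05 (-11.36 to -3.56). Against cleaned other fibroblasts Rbp4 did not keep 2-fold in both libraries (0.63 and 1.96), while Crabp2 and Aldh1a3 were among the 3 lower. Cyp26b1, which degrades retinoic acid, was higher in control members (49.7 CPM against 2.05 CPM), and less so in the SM22-SmoM2 library (36.6 CPM against 20.1 CPM). Of 7 BMP genes tested, 1 was higher in both libraries and 2, Sostdc1 and Chrdl1, were lower. After cleaning 1 of 6 tested was higher and 1 lower, without Sostdc1. None of 14 TGF-beta genes was past 2-fold in both libraries, which shows nothing particular to them at shares of 1.36% higher and 5.14% lower over all genes.

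Twist1 and Twist2, helix-loop-helix factors of dermal mesenchyme, were the 2 dermal transcription factors of 13 tested that were at least 2-fold higher in both libraries. Twist2 stood at 276 CPM in control members against 56.3 CPM in control other fibroblasts, and 232 against 97.5 CPM in SM22-SmoM2 mice, log2 ratios of 2.29 (2.16 to 2.43) and 1.25 (1.09 to 1.41), and Twist1 had 1.33 and 1.02. Meox2 was lower (-2.79 and -4.02). Twist2 kept 2-fold against cleaned other fibroblasts (1.85 and 1.03) and Twist1 did not (0.92 and 0.87). Inflammatory mediators had medians of -1.77 and -1.04, with 4 of 12 tested lower in both libraries and 0 higher, beside 5.14% lower over all genes. Il6 stood at 9.43 CPM in control members against 37.4 CPM in control other fibroblasts, and 15.1 against 67.0 CPM in SM22-SmoM2 mice, and Cxcl12, a chemokine that attracts leukocytes, had log2 ratios of -1.12 and -1.51. Cxcl1, a neutrophil chemokine, was lower in control members (-2.15) and not past 2-fold in the SM22-SmoM2 library (-0.30). Growth factors had 2 of 8 tested lower in both, Fgf7 (-3.90 and -2.99) and Pdgfa (-3.28 and -2.05). Beside 5.14% lower over all genes, so small a count says little about the list. Pdgfa had -1.91 and 0.27 against cleaned other fibroblasts, so that it stayed lower in the control library alone. Cell cycle genes had none of 16 past 2-fold in both libraries, which shows nothing particular to them at shares of 1.36% higher and 5.14% lower over all genes. Members with at least 3 UMIs over 6 cycling genes were 12.7% (9.04% to 17.1%) of the control and 22.9% (16.3% to 30.7%) of the SM22-SmoM2 library, against 10.1% and 13.5% of other fibroblasts, which were shallower.

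Hh target genes were low in members of both genotypes. Hh ligands bind Patched (Ptch1), which frees Smoothened to activate the Gli factors, and Gli1, Ptch1 and Hhip are themselves targets. Gli1 gave 7 UMIs in all control and 12 in all SM22-SmoM2 members, 1.78 CPM (0.717 to 3.68) and 5.85 CPM (3.02 to 10.2), against 6.07 CPM and 29.4 CPM in other fibroblasts. Ptch1 gave 25 and 51 UMIs in members, 6.37 CPM (4.12 to 9.41) and 24.9 CPM (18.5 to 32.7), against 14.6 CPM (12.6 to 16.8) and 144 CPM (137 to 152). Both genes were lower in members than in other fibroblasts of the same library, and the intervals of Ptch1 do not overlap. Hhip gave 0 UMIs in control members, which allows up to 3, and 3 in SM22-SmoM2 members, against 33.0 CPM in other SM22-SmoM2 fibroblasts. Over Gli1, Gli2 and Ptch1 together, members went from 10.2 CPM (7.28 to 13.9) to 35.1 CPM (27.5 to 44.2), a log2 ratio of 1.78 (1.21 to 2.38), and cleaned other fibroblasts from 26.5 CPM (23.2 to 30.1) to 214 CPM (203 to 224), a log2 ratio of 3.01 (2.81 to 3.22). In cells thinned to 2500 UMIs, a UMI of these 3 genes was found in 2.82% (1.22% to 5.47%) of control and 6.25% (2.90% to 11.5%) of SM22-SmoM2 members, and in 5.77% (4.19% to 7.72%) and 37.2% (33.6% to 40.8%) of cleaned other fibroblasts. Endothelial cells of the same libraries had 4.02% and 5.83%, and their intervals (2.66% to 5.79% and 3.23% to 9.59%) overlap those of members. The shares in members could not be told apart from those in endothelial cells, which were themselves sorted as Tomato+ cells, and free RNA was not measured. Before thinning, the shares were 9.86% and 23.6% in members and 15.5% and 21.7% in endothelial cells, whose median depths were 10524 and 8196.5 UMIs.

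Receptors and co-receptors of the pathway were present. Gas1, a surface protein that binds Hh ligands, stood at 521 CPM in control members against 219 CPM in control other fibroblasts, and 326 against 127 CPM in SM22-SmoM2 mice, and Gli3, the main repressor Gli, had log2 ratios of 1.11 and 1.04 between members and other fibroblasts. These were the 2 of 6 pathway genes tested that were at least 2-fold higher in members of both libraries, and Ptch1 was lower. A further 4 on the list had too few UMIs. Cleaning left neither Gas1 (0.84 and 1.14) nor Gli3 (1.03 and 0.94) past 2-fold in both. Smo itself, whose reads cannot be separated here from those of the SmoM2 transgene, stood at 54.8 CPM (47.7 to 62.6) in control and 43.9 CPM (35.3 to 54.0) in SM22-SmoM2 members, and at 43.8 CPM and 54.8 CPM in other fibroblasts. The study names dermal papilla (DP) genes, from signatures defined elsewhere, for the Hh-active fibroblasts of these libraries, so their direction here is not independent evidence. In members 4 of 6 tested were at least 2-fold lower than in other fibroblasts of both libraries, namely Hey1, Wif1, Rasd1 and Plk2, and 0 higher. Bmp3, also on the list, was higher in control members (19.1 CPM against 2.88 CPM) and lower in SM22-SmoM2 members (12.7 CPM against 36.7 CPM). Lef1, the Wnt transcription factor of the DP, gave no UMI in members of either library. Wif1, a secreted Wnt inhibitor, gave no UMI in control members and 52 in SM22-SmoM2 members at 25.4 CPM, with an interval of 18.9 to 33.3, and stood at 254 CPM in other SM22-SmoM2 fibroblasts. The part of free RNA in the Wif1 UMIs of members was not tested.

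Among 5735 genes with at least 100 UMIs over all members, 112 (1.95%) were at least 2-fold higher in SM22-SmoM2 than in control members and 93 (1.62%) at least 2-fold lower, around a median log2 ratio of -0.10. The 10 highest were Spry2, Prdm1, Dusp5, Errfi1, Sox11, Hbegf, Bcl2l11, Mt2, Trib1 and Cdkn1a. Spry2, a feedback inhibitor of receptor tyrosine kinases, stood at 15.8 CPM in control members and 137 CPM in SM22-SmoM2 members, a log2 ratio of 3.12 (2.71 to 3.54). Other fibroblasts held 139 CPM of Spry2 in the control and 135 CPM in the SM22-SmoM2 library, and cleaned ones 68.6 and 97.2 CPM. Control members thus lay below other fibroblasts, while SM22-SmoM2 members lay near the uncleaned ones. Prdm1 stood at 13.3 CPM in control members and 95.6 CPM in SM22-SmoM2 members, a log2 ratio of 2.85 (2.40 to 3.32). Errfi1, a feedback inhibitor of the EGF receptor, stood at 61.2 CPM in control members and 329 CPM in SM22-SmoM2 members, and Dusp5, a phosphatase that inactivates ERK, at 11.0 CPM in control members and 61.9 CPM in SM22-SmoM2 members. Hbegf, an EGF receptor ligand, stood at 31.9 CPM in control members and 142 CPM in SM22-SmoM2 members, Cdkn1a, the cell cycle inhibitor p21, at 34.9 CPM in control members and 137 CPM in SM22-SmoM2 members, and Bcl2l11, the death protein Bim, at 16.6 CPM in control members and 71.2 CPM in SM22-SmoM2 members. The remaining genes were Sox11, a developmental factor (2.37), Mt2, a metallothionein (2.04), and Trib1, a pseudokinase (2.002). In cleaned other fibroblasts the log2 ratio between the libraries was 0.50 (0.35 to 0.66) for Spry2, 0.57 (0.42 to 0.71) for Hbegf and 0.78 (0.57 to 1.00) for Bcl2l11, intervals below those of members, and 2.88 (2.35 to 3.46) for Prdm1, 2.75 (2.47 to 3.04) for Dusp5 and 2.48 (2.27 to 2.68) for Sox11, intervals that overlap those of members. The difference between the 2 classes was not tested.

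The 10 lowest genes were Spp1, Cxcl5, Fabp4, Wisp2, Ccl11, Tppp3, Mmp3, Ccdc109b, Cdh13 and St6galnac3. Spp1, the secreted phosphoprotein osteopontin, stood at 164 CPM in control members and 16.6 CPM in SM22-SmoM2 members, a log2 ratio of -3.31 (-3.85 to -2.81), so that it was above other fibroblasts in the control library alone (34.5 CPM and 27.1 CPM in other fibroblasts). Few cells carried it: 16.2% of control members and 12.5% of SM22-SmoM2 members had a UMI of Spp1, against 12.4% and 10.8% of the shallower other fibroblasts, so the summed level is not that of most members. In cells thinned to 2500 UMIs the shares were 6.34% (3.80% to 9.83%) and 1.39% (0.169% to 4.93%) of members and 4.56% (3.49% to 5.84%) and 4.86% (3.58% to 6.43%) of other fibroblasts. Mmp3, stromelysin-1, stood at 251 CPM in control members and 43.9 CPM in SM22-SmoM2 members, a log2 ratio of -2.52 (-2.85 to -2.21). The chemokines Cxcl5 and Ccl11 stood at 46.6 CPM and 28.3 CPM in control and 6.34 CPM and 4.88 CPM in SM22-SmoM2 members. Wisp2, a CCN protein, stood at 40.8 CPM in control members and 5.85 CPM in SM22-SmoM2 members, and Cdh13, a cadherin anchored by a lipid, at 46.4 CPM in control members and 9.27 CPM in SM22-SmoM2 members. Cdh13 had a log2 ratio of 0.01 (-0.33 to 0.34) in cleaned other fibroblasts and Tppp3, a tubulin-binding protein, -2.38 (-2.47 to -2.30), beside -2.32 (-3.09 to -1.64) and -2.53 (-3.17 to -1.95) in members. Fabp4, a lipid carrier of adipocytes and capillaries, stood at 24.0 CPM in control members and 3.41 CPM in SM22-SmoM2 members, while Adipoq, which defines adipocytes, had 1 UMI in the members of each library. Of the 5 adipocyte markers together, at 333 CPM in control members and 131 CPM in SM22-SmoM2 members, Lpl, lipoprotein lipase, took 309 CPM and 126 CPM, and their part in the lower Fabp4 was not tested.

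**Figure D5:**
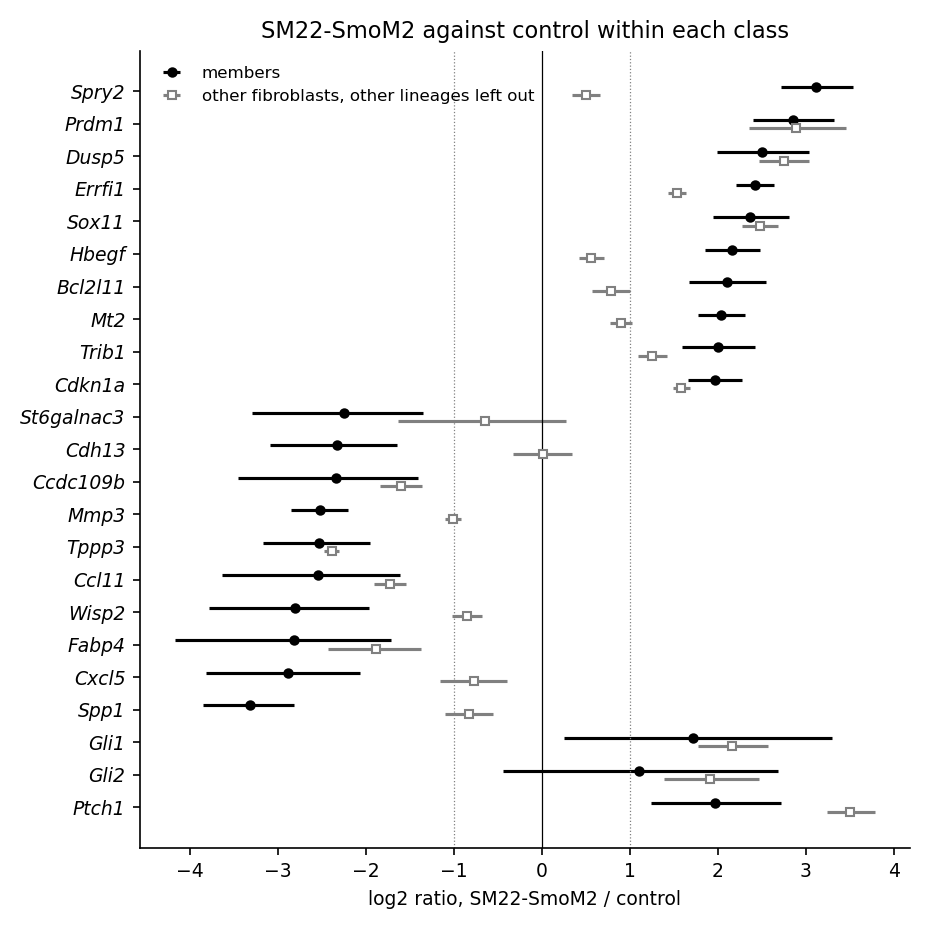
Log2 ratio of SM22-SmoM2 over control within members (filled circles) and within other fibroblasts after cells of other lineages had been left out (open squares), for the 10 highest and 10 lowest genes in members and for Gli1, Gli2 and Ptch1, with 95% intervals for counting error; dotted lines mark 2-fold. Spry2 and Hbegf lie far apart between the classes, Prdm1, Dusp5 and Sox11 close together, and Ptch1 is higher in SM22-SmoM2 in both classes, by 1.96 in members and 3.51 in other fibroblasts.

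The list counts between genotypes are to be read beside the shares over all genes, 1.95% higher and 1.62% lower, at which few or none of a short list would be counted. None of 10 fibrillar and associated collagens and none of 16 collagen-processing genes was past 2-fold, with medians of 0.00 and -0.19. Of 9 other collagens 1 was higher, Col26a1 (1.02). Col1a1 had a log2 ratio of -0.16 (-0.17 to -0.14) and Col1a2 of 0.00 (-0.02 to 0.01). Of 10 contractile genes 1, Actg2 (log2 ratio 1.00), reached 2-fold, and Acta2 and Tagln had 0.46 (0.34 to 0.57) and 0.50 (0.38 to 0.62). Of 10 lower dermis and fascia genes 5 were at least 2-fold lower and 0 higher, with a median of -1.003 beside -1.20 in other fibroblasts, the lower ones including Dlk1, an imprinted Notch-like protein (-1.79), and Ly6c1 (-1.70). Mgp of the same list went the other way, at 0.98 (0.47 to 1.49). Inflammatory mediators went both ways, 3 of 9 higher and 2 lower. Ccl2, a monocyte chemokine, stood at 327 CPM in control members and 852 CPM in SM22-SmoM2 members, and Ccl8, another, at 109.6 CPM in control members and 24.4 CPM in SM22-SmoM2 members. Of 17 metalloproteinases and inhibitors 3 were lower, Mmp3, Mmp14 (-1.07) and Mmp16 (-1.13), and 0 higher. Immediate early and heat shock genes had a median of 0.88, with 4 of 15 at least 2-fold higher and 0 lower. Nr4a1 stood at 37.0 CPM in control members and 132 CPM in SM22-SmoM2 members, Junb at 479 CPM in control members and 972 CPM in SM22-SmoM2 members and Ier3 at 342 CPM in control members and 762 CPM in SM22-SmoM2 members, whereas Fos stood at 448 CPM in control members and 429.7 CPM in SM22-SmoM2 members. Such genes also respond to the isolation of cells, and their median in other fibroblasts over the same list was 0.29. The part of isolation in these values was not tested.

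The libraries also differed in make-up. By Y-linked and Xist UMIs, 151 were male and 81 female among control members, against 105 and 3 among SM22-SmoM2 members. Ribosomal protein genes took 12.8% and 17.5% of members' UMIs, and 13.4% and 21.2% of those of other fibroblasts. The median mitochondrial share was 2.21% and 1.96% in members. With male cells alone, the 20 genes named between genotypes kept their direction and stayed past 2-fold.

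Some genes that name other fibroblast groups of these wounds were lower in members. Of 24 such genes, chosen with earlier results of these data known, 15 were tested, 6 were at least 2-fold lower in members of both libraries and 0 higher, beside 5.14% lower over all genes, with medians of -1.29 and -1.63. The lower genes were Dlk1, Clec11a, Cldn1, Wif1, Angptl1 and Thbs4. Penk, the enkephalin precursor, stood at 29.8 CPM in control members against 51.9 CPM in control other fibroblasts, and 101 against 1108 CPM in SM22-SmoM2 mice. In endothelial cells, which should lack it, Penk stood at 0.957 CPM in the control and 50.1 CPM in the SM22-SmoM2 library. Mest, an imprinted hydrolase, stood at 117 CPM in control members against 159.7 CPM in control other fibroblasts, and 117 against 992 CPM in SM22-SmoM2 mice, and Cldn1, a claudin, at 1.27 CPM in control members against 10.6 CPM in control other fibroblasts, and 3.41 against 76.0 CPM in SM22-SmoM2 mice. Mest in members did not differ between libraries beyond counting error, with a log2 ratio of 0.00 (-0.23 to 0.23), while it was 2.50 (2.42 to 2.57) in cleaned other fibroblasts. Dlk1 and Angptl1 were lower in members in both libraries (Dlk1 -2.83 and -1.35, Angptl1 -1.98 and -1.48). Pamr1 was lower in the control library (-1.29) and higher in the SM22-SmoM2 library (1.23), where other fibroblasts held only 11.9 CPM, and Il1rl1, the receptor of interleukin-33, stayed within 2-fold (-0.31 and 0.30).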

How the data were processed

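The deposited values were whole UMI counts per gene and cell, which the authors made with bcl2fastq and Cell Ranger from 10x Chromium 3' v2 libraries against mm10 (GRCm38). Versions, annotation and strand setting are not given in the sources used here. The matrices hold called cells. The deposited barcode list covers the whole kit (737280 barcodes) and does not pair them with columns, so barcodes shared between the libraries could not be counted.

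Cells with up to 10% mitochondrial UMIs were kept. Members and gene lists were chosen with earlier results of these data known. For each class of cells in a library UMIs were added up and scaled to CPM, with exact Poisson intervals. Log2 ratios carry exact conditional intervals and shares Clopper-Pearson intervals, all at 95%. A count of 0 was set to 3 UMIs. Ratios between counts of 3 or fewer are left out. UMIs are counted molecules, but cells of 1 library are not replicates, so intervals and floors cover counting error only and no p-value is given. Genes counted as higher or lower had at least 100 UMIs and a log2 ratio of 1 or more in size, without the 15 genes of the rule and gate. Genes named are the 14 highest and 10 lowest between members and other fibroblasts, by the smaller of both ratios, the 10 highest and 10 lowest between libraries, and genes of the lists. Mitochondrial, ribosomal protein, haemoglobin, sex-linked and unnamed (Gm, Rik) genes were not ranked. A gene named by this rule is not reported here.

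On simulated counts of 8087 genes for members against other fibroblasts, 50 of 50 genes raised and 46 of 46 lowered by 2 on the log2 scale were found, and 0 of 7893 unchanged genes. These counts held Poisson error alone, without variation between cells, choice of cells by the rule or cells of other lineages. Changes so far past the threshold were bound to be found, so the step checks the calculation and not the error in the real cells. Alternatives changed the rule, gate, depth, scaling, filters, sex and doublets. Scrublet at an expected rate of 5% marked 6 control cells and set no threshold for the SM22-SmoM2 library, so it did not work here, and 1 alternative also removed cells with both Xist and Y-linked UMIs. Computation used Python 3.11.15, NumPy 2.4.6, SciPy 1.17.1, pandas 2.3.3 and scanpy 1.11.5.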

Additional observations from a re-analysis of the deposited data

Results flagged for a closer look

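Cells outside the fibroblast gate also passed the 6-gene rule, 10 of 1277 of the control library and 4 of 702 from SM22-SmoM2 mice. They enter no comparison of the report. All 10 and 4 of them had more than 2 UMIs of Pecam1, Sox10, Rgs5 and Ptprc together, and cells captured in pairs and cells with free RNA were not told apart from them.

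Among the genes of the lists with at least 100 UMIs in members, 4 moved in opposite directions between genotypes in members and in cleaned other fibroblasts, each by at least 0.5 on the log2 scale with intervals away from 0. Ccl2 had a log2 ratio of SM22-SmoM2 over control of 1.38 (1.28 to 1.49) in members and -1.19 (-1.24 to -1.13) in cleaned other fibroblasts. Mgp had a log2 ratio of SM22-SmoM2 over control of 0.98 (0.47 to 1.49) in members and -0.67 (-0.74 to -0.59) in cleaned other fibroblasts. Rbp4 had a log2 ratio of SM22-SmoM2 over control of 0.53 (0.32 to 0.75) in members and -0.80 (-1.0 to -0.60) in cleaned other fibroblasts. Fstl3 had a log2 ratio of SM22-SmoM2 over control of -0.78 (-1.21 to -0.37) in members and 0.73 (0.37 to 1.09) in cleaned other fibroblasts, where Fstl3 is an activin antagonist. The difference between the classes was not tested, and each genotype is 1 library.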

How the results depend on the processing

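The shares of members in control and SM22-SmoM2 fibroblasts, 18.0% and 13.2%, were 23.3% and 17.3% with at least 3 of the 6 genes, 11.1% and 6.79% with at least 5, 14.8% and 9.72% with at least 2 UMIs per 10000 in each gene, 13.1% and 6.79% when the rule was read in cells thinned to 2500 UMIs, 20.7% and 20.2% with a fibroblast gate at 20 per 10000, and 27.4% and 16.7% with cells of other lineages left out (added after seeing the data). Genes at least 2-fold higher in members than in other fibroblasts numbered 67 after each cell was thinned to 2500 UMIs and 71 with cells of other lineages left out, against 110. Genes lower numbered 222 and 194, and 223 against other fibroblasts with at least the lower-quartile depth of members, in place of 417. Genes higher in SM22-SmoM2 members, 112, numbered 73 with the rule on thinned cells, 178 with a minimum of 50 UMIs and 36 after thinning. Genes lower in them, 93, numbered 202 and 27 under the last 2 of these. Thinning and leaving out cells also left fewer genes tested. Of the named genes, Cadm1 (in the control library 0.34) and Fabp7 (in the SM22-SmoM2 library 1.52) changed sign with cells of other lineages left out, on few UMIs, and 37 of 43 with a value stayed past 2-fold. In all, 593 of 595 named-gene values and 185 of 185 list medians past 2-fold kept their direction over the 14 alternatives. Of these values, 588 of 595 and 169 of 185 stayed past 2-fold. The minimum of 50 UMIs cannot change the ratio of a named gene, so its 44 named-gene values were fixed in advance. The named genes were also picked as the most extreme, which favours a kept direction. No paired analysis was possible because each genotype had 1 library. Depth limits the low genes in members, such as Gli1 with 7 and 12 UMIs.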

Other observations

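Some genes were at least 2-fold above other fibroblasts in control members but not in SM22-SmoM2 members, where other fibroblasts held more of them than in the control library. These genes were picked after their values had been seen. Tnmd, tenomodulin of tendon and ligament, stood at 149 CPM and 136 CPM in control and SM22-SmoM2 members, and at 31.9 and 204 CPM in cleaned other fibroblasts. Cyp26b1 stood at 49.7 CPM and 36.6 CPM in members and 2.50 and 24.1 CPM in cleaned other fibroblasts. Bmp3, a BMP that counters other BMPs, stood at 19.1 CPM and 12.7 CPM in members and 3.41 and 42.0 CPM in cleaned other fibroblasts. Apart from these, En1, a homeodomain factor of dermal lineages, was higher in the SM22-SmoM2 library in both classes, with log2 ratios of 1.27 (1.04 to 1.51) in members and 1.17 (1.00 to 1.34) in cleaned other fibroblasts.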
